A study of Mus musculus with 8 samples.

Results

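Most of the 71 genes described here encode the H1, H2A, H2B, H3 and H4 histones that are made mainly while DNA is copied. With them are H1f0, a linker histone made outside that phase, 3 testis-type genes and 3 genes annotated as pseudogenes. The genes were chosen by name. The rule took every gene of the deposited table whose symbol follows the older mouse nomenclature for clustered histone genes or for H1f. These are 71 of 49585 listed genes. All were measured in brachiocephalic arteries, a branch of the aortic arch, taken from ApoE-deficient mice whose plaques were brought on by a high-fat diet that began at 12 weeks of age. The tested mice received a Dll1 blocking antibody (clone HMD1-5) and the controls non-immune IgG, in both cases 250 micrograms into the peritoneum, 2 times per week. Dll1 is one of the proteins that activate Notch receptors on neighbouring cells. Each treatment had 4 libraries of RNA depleted of ribosomal RNA, so both treatments share the genotype and the diet. No comparison here includes mice without either feature. The labels do not give the age at sampling or say that each sample was a separate animal, so a p-value here speaks only of how far these samples lie apart, part of which may be technical.

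Column names place the libraries in 2 sets, 045 and 076, and the sources used here do not say what these numbers mean. Set 045 held antibody libraries D1IA and D2IA and IgG libraries C1IA and C2IA. Set 076 held antibody libraries also named D1IA and D2IA, and IgG libraries G1IA and G2IA.

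DNA in the nucleus is wound around a core of H2A, H2B, H3 and H4 histones, and H1 binds the DNA between cores. Most of these proteins are needed in bulk during S phase, the time of DNA replication, and their genes lie in clusters that are switched on together then. Their mRNAs usually end in a short stem-loop in place of a poly(A) tail. The stem-loop is bound by the protein SLBP, and mRNAs of this kind are lost from libraries selected by poly(A) but kept in libraries depleted of ribosomal RNA. Most cells of an artery wall divide rarely.

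The stem-loop is shown because it is what most of the listed genes share in their RNA and nothing in the choice by name used it. The consensus of the 16-base histone stem-loop was searched on the sense strand of the transcripts of GENCODE M21. It was found, in 5 spellings, in 38 of the 71 genes, and in 43 of all 55450 annotated genes (0.0775%, these members included). The most common spelling was held by 26 genes of the H1, H2A, H2B and H3 classes. The H4 genes used other letters in the stem, as the following sites show, with the 16 bases of the element in capitals and up to 5 flanking bases in lower case.
Hist1h1c: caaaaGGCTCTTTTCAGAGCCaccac
Hist2h2aa1: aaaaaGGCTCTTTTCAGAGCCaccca
Hist2h2ac: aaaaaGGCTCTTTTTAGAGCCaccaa
Hist1h4d: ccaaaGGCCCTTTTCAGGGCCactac
Hist1h4i: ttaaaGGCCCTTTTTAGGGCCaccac
Hist1h4b: caaaaGGTCCTTTTCAGGACCactca
The other 33 genes had no such letters in the annotated transcript, which for some of them may end before the site. The 38 genes with the element held between 69.0% and 77.6% of the summed histone level of a library.

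The promoters of H2A and H2B genes also share letters. Of the 71 genes, 62 had a promoter of 300 bases in RefSeq (250 before the start and 50 after it). The octamer ATTTGCAT, searched on both strands, was in 7 of 17 H2A promoters and 6 of 16 H2B promoters, and in 0 promoters of the H1, H3 and H4 classes. It was in 1.75% of all 27025 promoters. CCAAT, also searched on both strands, was in every H2A, H2B and H3 promoter found, in 3 of 12 H4 promoters and in 37.9% of all promoters. TATAAA, searched likewise, was in 56.5% of the members' promoters and in 14.2% of all promoters. The 2 promoters below, on build GRCm38.p6 and the plus strand, show where the octamer (in capitals) lies. Hist1h2bk is the neighbour of Hist1h2ah, the gene with the smallest p over both sets, and Hist2h2bb is among the 4 highest H2B genes.
Hist1h2bk, chr13:22035571-22035870: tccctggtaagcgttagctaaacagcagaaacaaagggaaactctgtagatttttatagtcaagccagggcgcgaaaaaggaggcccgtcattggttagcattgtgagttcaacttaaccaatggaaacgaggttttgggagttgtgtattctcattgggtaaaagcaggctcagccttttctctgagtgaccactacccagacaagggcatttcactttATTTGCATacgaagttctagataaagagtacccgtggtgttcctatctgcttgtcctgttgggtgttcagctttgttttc
Hist2h2bb, chr3:96269450-96269749: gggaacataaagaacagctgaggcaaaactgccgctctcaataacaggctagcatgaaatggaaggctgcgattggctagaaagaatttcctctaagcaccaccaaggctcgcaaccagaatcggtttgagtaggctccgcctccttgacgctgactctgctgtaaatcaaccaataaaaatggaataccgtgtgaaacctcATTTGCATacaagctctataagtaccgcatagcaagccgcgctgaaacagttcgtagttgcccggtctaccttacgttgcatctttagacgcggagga

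The table gives TPM, a length-adjusted share of all transcripts in a library. In set 076 Rn7s1, which codes for the structural RNA 7SL, held 31.4% to 43.0% of TPM, and protein-coding genes took 21.2% to 24.2%. In set 045 the share of Rn7s1 was 62.7% to 72.8% and that of protein-coding genes 0.848% to 3.10%. Unless TPM is named, levels below are therefore TPM rescaled so that nuclear protein-coding genes sum to 1000000 (the protein-coding scale). Reads recovered from the steps of the TPM values numbered 11062667 to 13816405 per library, of which histone genes took 7362 to 12504 in set 076 and 933 to 2443 in set 045. A gene of 500 bases needed a level of 2.44 to 2.79 to reach 3 reads in set 076, and 8.49 to 31.3 in set 045. Low members are thus measured far less precisely in set 045, and these floors cover counting error only. Of the 6 smooth muscle markers of the labelled tissue, all were above 0 in every library, with sums of 3547 to 4614 in set 076 and 542 to 957 in set 045.

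Histone mRNA made up a small part of the protein-coding total and was spread over many genes. The 71 genes lay on 5 chromosomes. There were 56 Hist1 genes (chromosome 13 for the 54 whose deposited identifiers M21 holds), 10 Hist2 genes (chromosome 3), 3 Hist3 genes (chromosome 11), 1 Hist4 gene (chromosome 6) and H1f0 (chromosome 15). By class they were 7 H1, 20 H2A, 19 H2B, 12 H3 and 13 H4 genes. M21 holds all 71 symbols, though 2 of the deposited identifiers are not in it, and it calls 3 of the genes pseudogenes. Reads were seen for 68 genes in at least 1 library and for 45 in all 8. Of the testis-type members, Hist1h2aa and Hist1h2ba were listed at 0 in all 8 libraries, and Hist1h1t had 1 read in each IgG library of set 076 and 0 in the other 6. Hist1h2aj was also at 0 throughout.

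In set 045 the summed level was 7598 and 7492 in the antibody libraries, against 5331 and 5041 in the IgG libraries. In set 076 the sum was 8168 and 4993 in the antibody libraries, against 6973 and 4952 in the IgG libraries. These sums equal 0.495% to 0.817% of the protein-coding total. The antibody libraries lay above the IgG libraries in set 045 without overlap, by a ratio of means of 1.46, while in set 076 the ratio was 1.10 and the groups overlapped. Other lists were also higher without overlap in set 045 on this scale. The 6 smooth muscle markers summed to 910 and 957 with the antibody and 634 and 542 with IgG there, and the 5 endothelial markers to 792 and 541 with the antibody and 354 and 535 with IgG. The part of these cells in the histone difference was not tested. The order in set 045 depended on the scale. In deposited TPM the antibody libraries of that set summed to 64.5 and 132 and the IgG libraries to 90.8 and 156, and the groups overlapped. In set 076 the TPM sums were 1757 and 1208 with the antibody and 1558 and 1049 with IgG. Over both sets the sum on the protein-coding scale was 7063 ± 1412 with the antibody and 5574 ± 947 with IgG (SD, n = 4 each). In these bulk samples fewer cells of a type and less RNA per cell cannot be told apart.

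**Figure D1:**
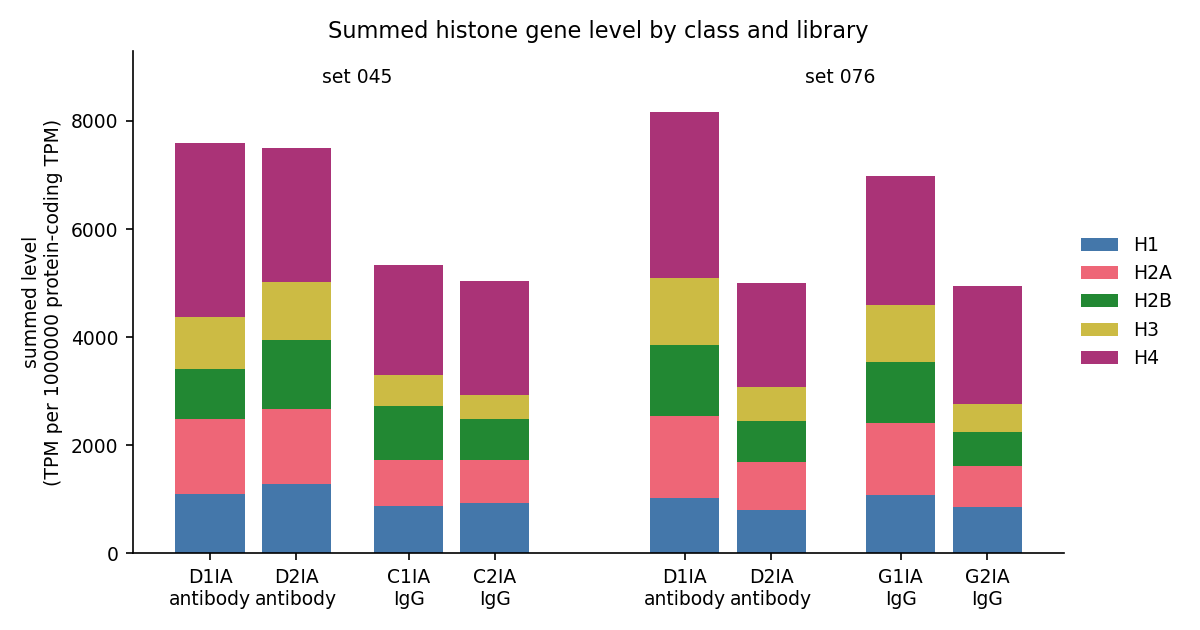
Summed level of the histone genes in each library on the protein-coding scale, stacked by class, with antibody libraries left of IgG libraries in each set. The antibody bars of set 045 reach 7598 and 7492 and lie above the IgG bars on this scale (in deposited TPM they do not), and in set 076 D1IA and G1IA stand above D2IA and G2IA.

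The H4 class held 33.0% to 44.4% of the histone level of a library, with a median of 38.3%, and the H3 class 8.80% to 15.3%. The medians of the other classes were 17.9% for H2A, 16.3% for H1, 15.7% for H2B and 12.6% for H3. Hist1 genes held a median of 79.6% and Hist2 genes 17.2%, while Hist3, Hist4 and H1f0 held 1.20%, 0.213% and 1.85%. The 10 highest genes of a library held 43.3% to 66.9% of its histone level. With the antibody the H4 sum was 3230 and 2476 in set 045, against 2031 and 2105 with IgG, and in set 076 it was 3070 and 1918 with the antibody, against 2382 and 2197 with IgG. The ratio of antibody to IgG means in set 045 was 1.99 for H3, 1.68 for H2A, 1.38 for H4, 1.32 for H1 and 1.25 for H2B. In set 076 the ratio was 1.20 for H3, 1.17 for H2B, 1.15 for H2A, 1.09 for H4 and 0.953 for H1. The H1, H2A, H3 and H4 sums of set 045 were each higher in both antibody libraries than in both IgG libraries. The H1 sum there was 1095 and 1286 with the antibody and 878 and 925 with IgG. For H2A it was 1379 and 1381 with the antibody and 855 and 792 with IgG, and for H3 961 and 1063 with the antibody and 573 and 443 with IgG. The H2B sums of that set overlapped, at 932 and 1285 with the antibody and 995 and 775 with IgG. Whether the classes differ in this was not tested.

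Among the linker histones, Hist1h1c (ENSMUSG00000036181) was the highest. Its level was 418 and 514 with the antibody and 338 and 433 with IgG in set 045, and 429 and 365 with the antibody and 431 and 436 with IgG in set 076. Hist1h1e lay at 328 and 314 with the antibody and 338 and 293 with IgG in set 045, and at 204 and 222 with the antibody and 277 and 239 with IgG in set 076. It was the 1 member whose 4 libraries of set 076 all lay below the 4 of set 045, as 14.6% of all genes did. Both its antibody libraries of set 076 lay below both IgG libraries, as 11.0% of all genes did. Hist1h1d lay at 175 and 197 with the antibody and 48.6 and 59.0 with IgG in set 045. In set 076 its order was different, with 125 and 69.1 in antibody libraries and 134 and 41.8 in IgG libraries, which overlap. H1f0, whose mRNA does not depend on DNA replication, lay at 123 and 146 with the antibody and 99.0 and 92.8 with IgG in set 045. Its set 076 levels were 107 and 92.3 with the antibody and 107 and 111 with IgG, a narrow range.

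Of the H2A genes, Hist2h2aa1 and Hist2h2aa2 can be given only together, since every 50-base stretch of Hist2h2aa2 is also in Hist2h2aa1. Their summed level was 785 and 647 with the antibody and 400 and 514 with IgG in set 045, and 613 and 428 with the antibody and 572 and 428 with IgG in set 076. The share credited to Hist2h2aa1 ran from 33.9% to 97.5% between libraries, so the 2 rows apart are uncertain. Hist2h2ac lay at 140 and 150 with the antibody and 111 and 98.0 with IgG in set 045, and at 128 and 91.0 with the antibody and 142 and 107 with IgG in set 076. Hist1h2ap lay at 21.6 and 86.3 with the antibody and 44.98 and 0 with IgG in set 045, from at most 17 reads a library. Its near copy Hist1h2ao shares 93.1% of its 50-base stretches and was at 0 in every library but C2IA, where Hist1h2ap was at 0. The level summed over both rows was 21.6 and 86.3 with the antibody and 44.98 and 53.1 with IgG in set 045. The levels in set 076 were 217 and 103 with the antibody and 145 and 50.6 with IgG, so D1IA and G1IA were high.

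The H2B genes Hist1h2bc and Hist1h2bg led their class. Hist1h2bc lay at 234 and 263 with the antibody and 337 and 306 with IgG in set 045, and at 294 and 235 with the antibody and 274 and 237 with IgG in set 076. It was 1 of only 2 members (3.03% of those tested) whose antibody libraries both lay below both IgG libraries in set 045, where 20.8% of all genes did. Hist1h2bg lay at 284 and 200 with the antibody and 172 and 119 with IgG in set 045, and at 140 and 100 with the antibody and 137 and 76.7 with IgG in set 076. Hist2h2bb lay at 95.8 and 160 with the antibody and 94.8 and 66.8 with IgG in set 045, and at 212 and 96.7 with the antibody and 175 and 98.2 with IgG in set 076. In that set the libraries D1IA and G1IA of Hist2h2bb were again higher than D2IA and G2IA. Hist1h2bb showed the same order there, with 102 and 60.4 in antibody libraries and 94.7 and 48.4 in IgG libraries, after 80.7 and 168 with the antibody and 32.0 and 72.0 with IgG in set 045.

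Hist2h3b and Hist1h3c were the highest of the H3 genes. Hist2h3b lay at 160 and 200 with the antibody and 83.9 and 157 with IgG in set 045, and at 235 and 111 with the antibody and 192 and 110 with IgG in set 076. Hist1h3c lay at 224 and 145 with the antibody and 54.2 and 26.0 with IgG in set 045, and at 187 and 79.1 with the antibody and 149 and 26.7 with IgG in set 076. Both genes were high in D1IA and G1IA of set 076. In set 045 the treatments lay well apart for Hist1h3c, while for Hist2h3b IgG library C2IA (157) lay close to antibody library D1IA (160). Hist1h3e was steadier, at 81.1 and 87.8 with the antibody and 74.9 and 62.6 with IgG in set 045, and 132 and 83.3 with the antibody and 127 and 122 with IgG in set 076. Hist1h3h lay at 63.4 and 262 with the antibody and 70.3 and 110 with IgG in set 045, and at 92.1 and 70.8 with the antibody and 69.1 and 17.4 with IgG in set 076.

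The H4 class held the 2 highest genes of all, Hist1h4h and Hist1h4d, which code for H4 as the other H4 genes do. Hist1h4h lay at 672 and 388 with the antibody and 316 and 500 with IgG in set 045, and at 693 and 439 with the antibody and 475 and 545 with IgG in set 076. Hist1h4d lay at 425 and 566 with the antibody and 405 and 670 with IgG in set 045, and at 545 and 424 with the antibody and 505 and 482 with IgG in set 076. The groups of both genes overlapped in each set. Hist1h4c lay at 568 and 254 with the antibody and 238 and 426 with IgG in set 045, and at 526 and 341 with the antibody and 366 and 502 with IgG in set 076. Hist1h4m lay at 337 and 462 with the antibody and 318 and 148 with IgG in set 045, and at 323 and 204 with the antibody and 307 and 194 with IgG in set 076. Hist1h4m and its near copy Hist1h4n share most of their sequence, and the sources used here do not say how the authors' counting split reads between such copies. The level summed over both rows was 677 and 548 with the antibody and 665 and 237 with IgG in set 045, which overlap. In set 076 that sum was 572 and 337 with the antibody and 439 and 313 with IgG.

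The treatment was compared within each set and over both, in 1 limma fit of 18170 genes with a mean of at least 1 on the protein-coding scale, 66 of them histone genes. Fold changes are antibody minus IgG on the log2(level + 1) scale, with p-values adjusted by Benjamini-Hochberg over all 18170 genes. No histone gene passed an adjusted p of 0.05 in set 045, in set 076, over both sets or in the difference between the sets' effects. The background was 0.0% of all genes higher and 0.0% lower in set 045, over both sets and for the difference, and 0.0% higher and 0.011% (2 genes) lower in set 076. At an unadjusted p under 0.05, limma gave 12 histone genes higher and 0 lower in set 045, and 2 and 0 in set 076. The histone counts were 7 and 0 over both sets, and 1 and 4 for the difference. Among all 18170, the background at that cut was 492 up against 960 down (set 045) and 66 up against 97 down (set 076). It was 144 up against 351 down over both sets, and 596 up against 328 down for the difference. Limma-voom on recovered reads also called 0 histone genes in each of these comparisons. Its counts at an unadjusted p under 0.05 were 4 higher in set 045, 1 in set 076 and 6 over both sets, with 0 lower. For the difference they were 0 higher and 2 lower, and its counts over all genes are not given here.

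Without a test of its own, the direction over the 66 genes can be counted. In set 045, 47 were higher and 19 lower with the antibody on the protein-coding scale, with a median of 0.59, beside -0.13 over all genes. In deposited TPM 25 of 64 were higher and 39 lower, with a median of -0.09 beside -0.36 over all genes, so the sign turned with the scale while the histone median lay above that of all genes on both. In set 076, 46 were higher and 19 lower, with a median of 0.18 beside 0.00 over all genes. Without antibody library D1IA of set 076 that median was -0.14, and without IgG library G2IA it was -0.25. Over both sets the median was 0.44 (50 higher, 16 lower), beside -0.07 over all genes. The difference of the sets' effects, set 076 minus set 045, had a median of -0.50 on the protein-coding scale and 0.37 in deposited TPM, beside 0.14 and 0.42 over all genes.

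In set 045 both antibody libraries lay above both IgG libraries for 26 of the 66 genes (39.4%), where 14.2% of all genes did, and below for 2 (3.03%), where 20.8% of all genes did. The counts in set 076 were 11 above (16.7%, against 7.99% of all genes) and 3 below (4.55%, against 11.0%). Only Hist1h2ah lay above in both sets, as 0.66% of all genes did. The members share libraries and in part sequence, so these counts are not independent observations. Hist1h4m is among the 26, though its level summed with its near copy Hist1h4n, as given above, overlapped in set 045. By class, the 26 genes above in set 045 were 8 of 12 H3, 3 of 6 H1, 5 of 13 H4, 5 of 17 H2A and 5 of 18 H2B genes tested. The 6 Hist1 genes from Hist1h3a to Hist1h3f were all among them, and Hist1h3g, Hist1h3h and Hist1h3i were not. Hist1h3a had 3 and 16 reads with the antibody and 3 and 5 with IgG in set 045.

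**Figure D2:**
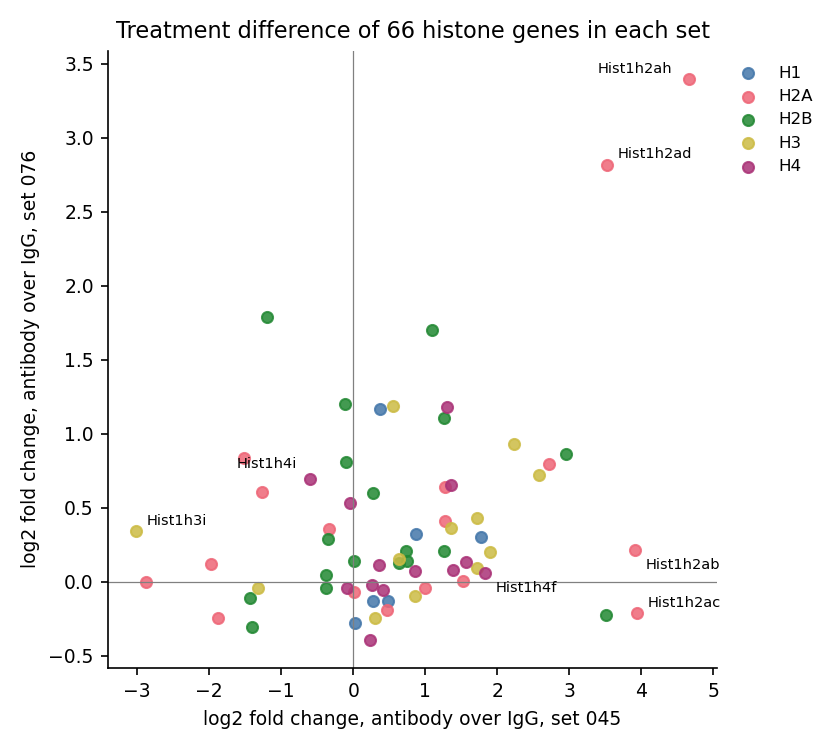
Log2 fold change of antibody over IgG for each of 66 histone genes, in set 045 (horizontal) and set 076 (vertical), coloured by class, on the protein-coding scale. Points spread from -3.02 to 4.66 in set 045 and from -0.39 to 3.40 in set 076, with Hist1h2ah at the top right. On the deposited TPM scale more genes lie below 0 than above it in set 045.

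Hist1h2ah (ENSMUSG00000069302), an H2A gene of the Hist1 cluster, had the smallest p over both sets. It was listed at 90.1 and 6.04 with the antibody and at 0 and 0 with IgG in set 045. These were 7 and 1 reads against 0 and 0. Set 076 had it at 55.3 and 12.4 with the antibody (55 and 11 reads) and at 5.74 and 0 with IgG (5 and 0 reads). The fitted log2 fold change over both sets was 4.03 (SE 0.99, limma adjusted p = 1.00), and it depends on the pseudocount since IgG libraries were at 0. Of its 50-base stretches 90.7% are also in other members, and 87.4% in Hist1h2ad, so its level also rests on how reads were split between copies. Hist1h2ad lay at 0 and 132 with the antibody and 0 and 0 with IgG in set 045, and at 48.3 and 29.5 with the antibody and 29.1 and 0 with IgG in set 076. In deposited TPM the fit called it, at 1.36 over both sets (adjusted p = 1.6e-05) and 2.25 in set 076 (adjusted p = 8.1e-08). That fit gave every gene of like level the same variance. Hist1h2bk, the H2B gene that starts 302 bases away on the other strand, lay at 21.9 and 56.5 with the antibody and 0 and 20.8 with IgG in set 045. In set 076 it lay at 107 and 39.2 with the antibody and 76.2 and 15.9 with IgG, so its groups overlapped there where those of Hist1h2ah did not.

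In set 045 the smallest p-values belonged to Hist1h2ac, Hist1h4f and Hist1h2ab. Hist1h4f, an H4 gene, had 27 and 27 reads with the antibody and 10 and 21 with IgG, mean levels of 264 and 68.8. Its fitted change was 1.83 (SE 0.45, limma adjusted p = 0.501). The 4 libraries of set 076 lay at 240 and 125 with the antibody and 182 and 152 with IgG, which overlap. Hist1h2ac had 4 and 6 reads with the antibody and 1 and 0 with IgG in set 045, a fitted change of 3.94 (SE 0.96, limma adjusted p = 0.501). In set 076 it had 55 and 11 reads with the antibody and 36 and 22 with IgG, so the separation was not seen where reads were more numerous. The fitted change of Hist1h2ab in set 045 was 3.92 (SE 1.11, limma adjusted p = 0.562), from 5 and 10 reads with the antibody and 0 and 4 with IgG. On the lower side were Hist1h3i, at 0 and 0 reads with the antibody and 11 and 0 with IgG, and Hist1h2ao, at 0 and 0 with the antibody and 0 and 18 with IgG, each resting on 1 IgG library. The row of Hist1h2ao cannot be read alone, since summed with its near copy Hist1h2ap, as given above, the treatments overlapped in set 045. Hist1h3i also shares 87.6% of its 50-base stretches with other members.

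Hist1h4i (ENSMUSG00000060639), an H4 gene, went opposite ways in the sets. Its level was 21.5 and 20.2 with the antibody and 33.1 and 31.1 with IgG in set 045, and 21.3 and 24.4 with the antibody and 15.4 and 12.1 with IgG in set 076. All 4 antibody libraries lay between 20.2 and 24.4, while the IgG libraries lay at 12.1 and 15.4 in set 076 and at 31.1 and 33.1 in set 045. The set 045 levels rest on few reads, 3 and 6 with the antibody and 10 and 16 with IgG. In set 076 there were 38 and 39 reads with the antibody and 24 and 21 with IgG. The change was -0.60 (SE 0.29, adjusted p = 0.611) in set 045 and 0.70 (SE 0.29, adjusted p = 1.00) in set 076. The difference between them, 1.30 (SE 0.41), had a limma adjusted p of 0.798. After Hist1h4i and Hist1h2ah, the next member on the higher side in set 076 was Hist1h3h, at 1.19 (SE 0.79, limma adjusted p = 1.00). On the lower side the smallest p-values belonged to Hist1h1e at -0.28, Hist4h4 at -0.39 and Hist1h3e at -0.25. None of these 4 was under 0.05 even before adjustment.

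Within set 076 the histone sums of 1 treatment differed more from each other, as given above, than the means of the treatments did. D1IA stood above D2IA among antibody libraries, and G1IA above G2IA among IgG libraries, for 55 of the 66 genes (83.3%). Both orders held for 10.7% of all 18170 genes. The difference was more than 1 on the log2 scale in both treatments for 19 members (28.8%), against 1.17% of all genes. It was within 0.5 in both for 11 members (16.7%), against 36.7% of all genes. In set 045 the corresponding order, D1IA above D2IA and C1IA above C2IA, held for 16 members (24.2%), against 12.1% of all genes. By class, the order of set 076 held for 17 of 18 H2B genes, 15 of 17 H2A, 11 of 12 H3, 9 of 13 H4 and 3 of 6 H1 genes tested.

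**Figure D3:**
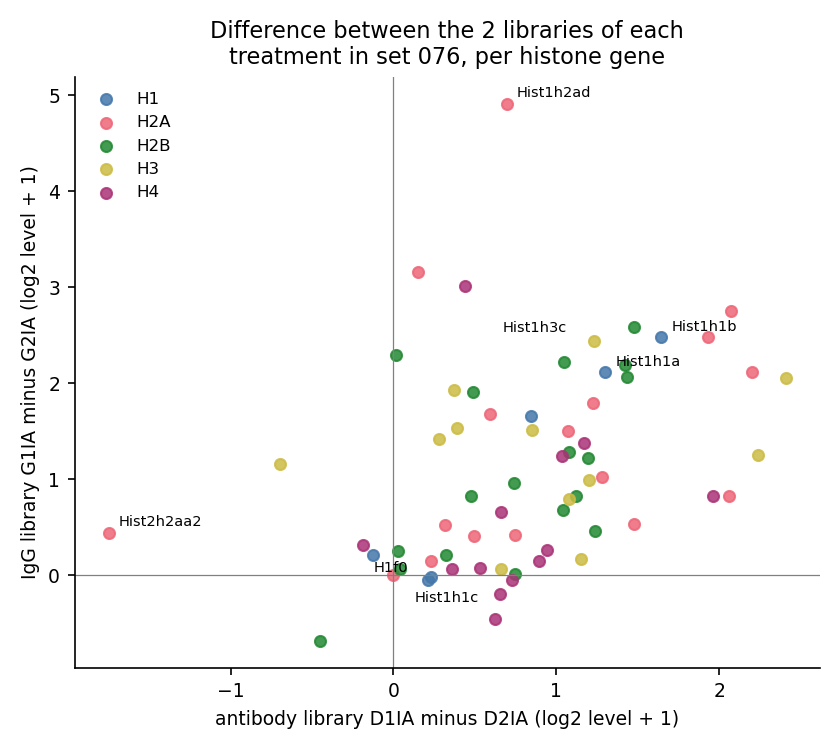
For each of 66 histone genes, the difference between antibody libraries D1IA and D2IA of set 076 (horizontal) and between IgG libraries G1IA and G2IA (vertical), as log2 of level + 1. Most points, 55 of 66, lie above 0 on both axes, while Hist1h1c and H1f0 lie near 0.

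The 19 genes with the wide difference had mean levels of 7.07 to 111 (median 35.4), and the 11 with the narrow one 6.63 to 503 (median 110). The wide group held Hist1h1a, Hist1h1b, Hist1h3b, Hist1h3c, Hist1h3g, Hist1h4b and Hist1h4j, and 12 H2A and H2B genes, all of the Hist1 cluster. Hist1h1b lay at 57.5 and 17.7 with the antibody and 61.4 and 10.2 with IgG in set 076, and Hist1h1a at 103 and 41.1 with the antibody and 60.1 and 13.1 with IgG. Both encode linker histones that are known as replication-dependent, as do Hist1h1c and Hist1h1e among the genes with the narrow difference. Hist1h3b lay at 149 and 30.8 with the antibody and 91.5 and 38.0 with IgG. The narrow group held Hist1h1c, Hist1h1e, H1f0, Hist1h2bc, Hist1h2be, Hist1h4d, Hist1h4i, Hist2h2ac, Hist2h2be and Hist3h2a, and Hist1h2ao, which was at 0 in all 4 libraries. These groups were formed from these values, and the genes in them were named after the values were seen.

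The groups can be set side by side in properties that did not form them, without a test. The length behind the TPM value had a median of 463 bases in the wide group (381 to 2212) and 748 in the narrow group (393 to 2620), or 1154 in the 10 narrow genes without Hist1h2ao. The stem-loop was in the annotated transcript of 7 of 19 wide and 8 of 11 narrow genes. A median of 60.4% of the 50-base stretches of a wide gene were also in another member, against 16.3% for a narrow gene. Among those with a promoter, the octamer was in 3 of 18 wide and 2 of 9 narrow genes. In set 045, whose values did not form the groups, the wide group summed to 985 and 1064 with the antibody and 678 and 297 with IgG, and the narrow group to 1759 and 2072 with the antibody and 1756 and 2057 with IgG. On the protein-coding scale the treatments thus did not overlap in the wide group there, and did in the narrow group. In set 076, whose values did form the groups, the wide group summed to 1568 and 585 with the antibody and 1176 and 337 with IgG, and the narrow group to 1822 and 1538 with the antibody and 1830 and 1694 with IgG.

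**Figure D4:**
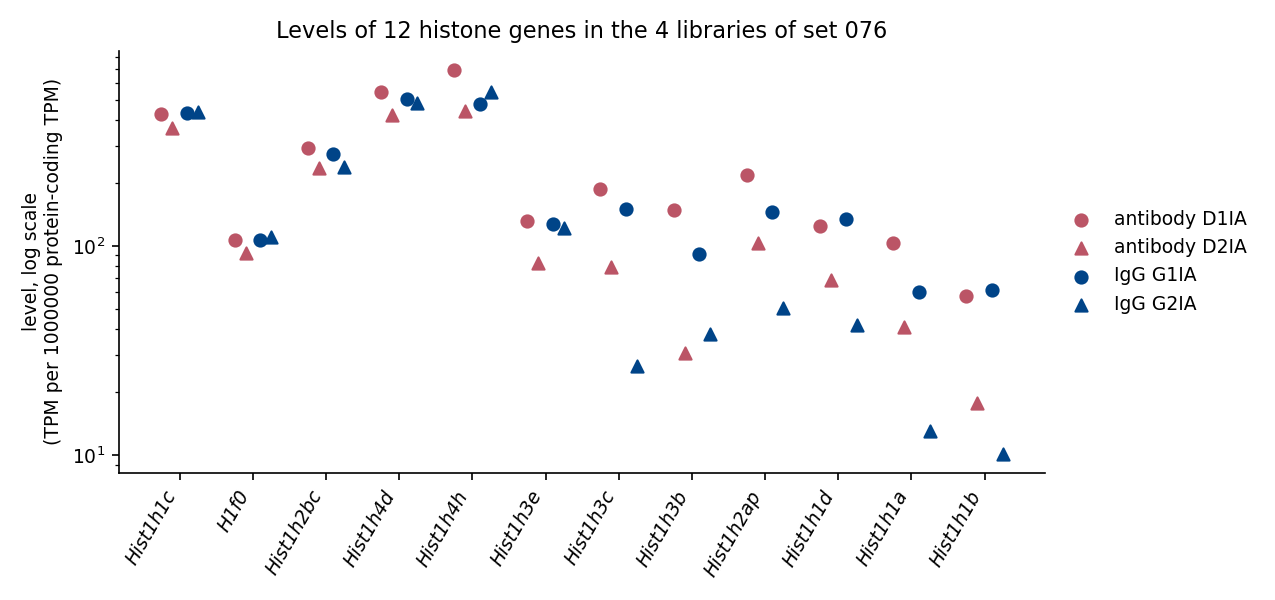
Level of 12 histone genes in the 4 libraries of set 076 on a log axis, on the protein-coding scale, with antibody libraries left of IgG libraries. Circles are D1IA and G1IA and triangles are D2IA and G2IA, which lie close together for Hist1h1c and H1f0 and apart for Hist1h1b, where they run from 10.2 to 61.4.

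In set 076 some markers of other cells were, like the histone sums, higher in D1IA than D2IA and in G1IA than G2IA, and others were not. The 6 thymocyte markers (Rag1, Rag2, Dntt, Ptcra, Cd8b1 and Cd3e) summed to 222 in D1IA and 44.6 in D2IA with the antibody, and to 120 in G1IA and 2.49 in G2IA with IgG. Rag1, an enzyme that cuts the receptor genes of developing lymphocytes, lay at 98.0 and 22.5 with the antibody and 61.3 and 1.40 with IgG. Of the 6 markers, 2 (Rag2 and Ptcra) were at 0 in G2IA and all were above 0 in the other 3 libraries. In set 045 the sums were 0 and 28.6 with the antibody and 5.61 and 0 with IgG, with all 6 at 0 in D1IA and C2IA, while the histone sums of those libraries were 7598 and 5041. The 5 red cell genes summed to 73626 and 19356 with the antibody and 23643 and 16975 with IgG in set 076, and to 44544 and 9337 with the antibody and 9241 and 8105 with IgG in set 045. The 6 skeletal muscle genes summed to 4101 and 297 with the antibody and 93.5 and 10.5 with IgG in set 076, and to at most 64.4 in set 045. The 6 B and plasma cell genes had the opposite order in both treatments of set 076, at 32.1 and 66.7 with the antibody and 781 and 1101 with IgG. The 5 macrophage markers, at 5616 and 7532 with the antibody and 11280 and 5110 with IgG, had the opposite order in the antibody libraries, as did the 5 endothelial markers, at 449 and 611 with the antibody and 700.0 and 661 with IgG. The 6 smooth muscle markers summed to 4008 and 3547 with the antibody and 4614 and 3977 with IgG in that set. The part of RNA from these cells in the histone levels was not tested.

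**Figure D5:**
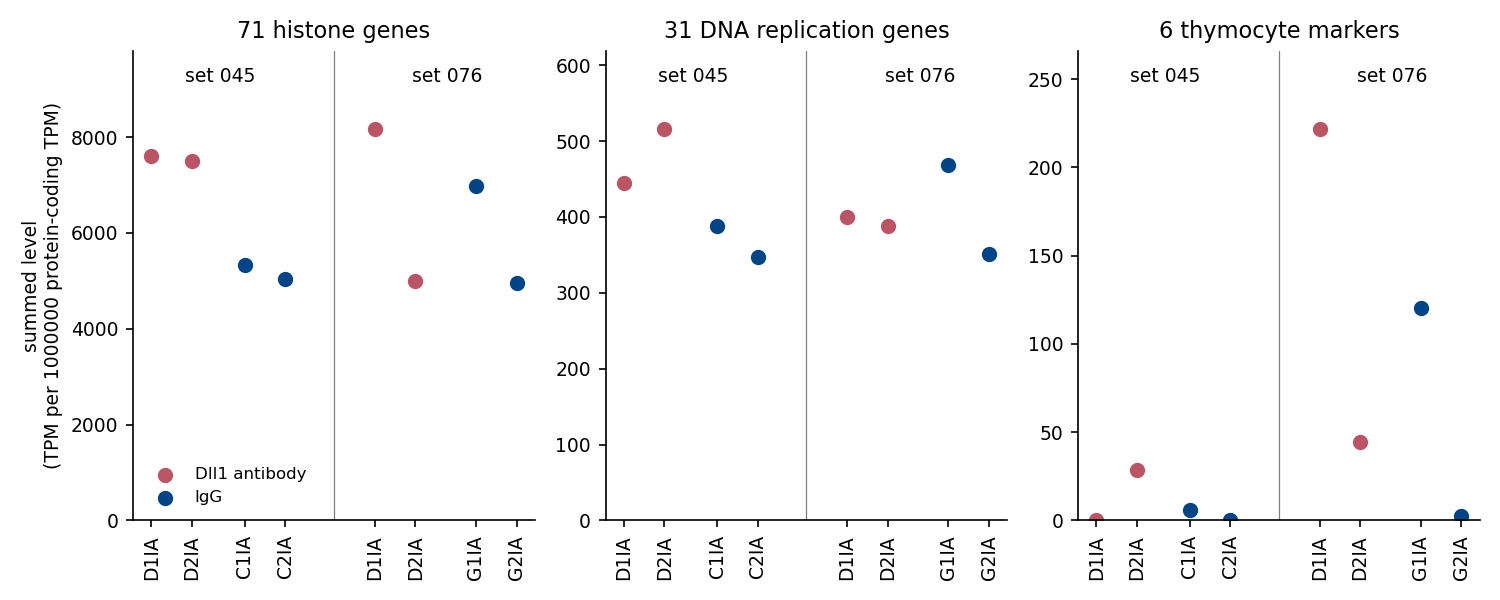
Summed level on the protein-coding scale of 71 histone genes, 31 DNA replication genes and 6 thymocyte markers in each library, antibody libraries left of IgG libraries in each set. In set 076 the histone and thymocyte sums have the same 4-library order, with D1IA highest and G2IA lowest. The red cell sums, not drawn, have that order too, and the histone sums of D2IA and G2IA (4993 and 4952) nearly tie. In set 045 the thymocyte sums are at most 28.6.

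Genes of DNA replication are active in the same phase of the cell cycle as most histone genes. The 31 of them summed to 445 and 516 with the antibody and 388 and 347 with IgG in set 045, and to 400 and 388 with the antibody and 468 and 351 with IgG in set 076. In set 045 their antibody libraries thus lay above their IgG libraries on the protein-coding scale, as the histone sums did. In set 076 D1IA lay above D2IA and G1IA above G2IA here too, but the highest library was G1IA, not D1IA. Pcna, the clamp that holds DNA polymerase, was the highest of the list, at 84.7 and 73.4 with the antibody and 63.2 and 60.7 with IgG in set 045, and at 130 and 117 with the antibody and 136 and 137 with IgG in set 076. Mki67, present in dividing cells, lay at 16.5 and 15.96 with the antibody and 23.8 and 7.52 with IgG in set 076. Of the 31, 0 were called with the antibody in any comparison. Between the sets Pcna was called higher and Pold1 lower in set 076.

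Replacement histones are made through the whole cell cycle from polyadenylated mRNAs. The 12 listed genes, 10 of them tested, summed to 1043 and 923 with the antibody and 1149 and 1045 with IgG in set 076, and to 946 and 1149 with the antibody and 883 and 782 with IgG in set 045. H3f3b and H3f3a, which code for the H3 variant H3.3, were the highest, and H2afz, which codes for H2A.Z, came next. H3f3b lay at 291 and 301 with the antibody and 400 and 327 with IgG in set 076, and at 329 and 453 with the antibody and 290 and 281 with IgG in set 045. H2afz lay at 219 and 209 with the antibody and 236 and 208 with IgG in set 076. H3f3a was the 1 gene of the list called between the sets, at 1.00 higher on the log2 scale in set 076 (SE 0.19, limma adjusted p = 0.035).

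Of 17 genes that process or degrade histone mRNA, 15 were tested and 0 were called with the antibody in any comparison. Slbp, which codes for the protein that binds the stem-loop, lay at 14.6 and 12.5 with the antibody and 16.7 and 20.3 with IgG in set 045, and at 20.6 and 19.1 with the antibody and 19.1 and 16.9 with IgG in set 076. Lsm10, a part of the U7 particle that guides the cut of the mRNA end, lay at 38.7 and 51.9 with the antibody and 33.2 and 16.5 with IgG in set 045, and at 28.5 and 26.1 with the antibody and 32.1 and 25.4 with IgG in set 076. Between the sets Sympk, a scaffold of the cleavage machinery, fell by 1.19 in set 076 (adjusted p = 0.032) and Srrt by 1.62 (adjusted p = 0.023). The 17 histone chaperones summed to 1077 and 1162 with the antibody and 1086 and 1093 with IgG in set 045, and to 1010 and 1094 with the antibody and 1095 and 1075 with IgG in set 076. None of them was called by limma in any comparison, and at an unadjusted p under 0.05 over both sets 0 were higher and 1 lower.

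H2A and H2B genes often lie back to back, and 14 such pairs with starts 173 to 306 bases apart were found. In 12 pairs both genes were above 0. Their mean levels differed 1.00-fold to 11.6-fold, with a median of 3.79-fold, and 4 of the 12 pairs lay within 2-fold. Some of these ratios rest on rows that share most of their sequence with a near copy. The widest is that of Hist1h2ap and Hist1h2br, of whose 50-base stretches 93.1% and 88.7% are also in other members. The pair of Hist3h2a includes Hist3h2bb-ps, which M21 calls a pseudogene. Hist1h2bl and Hist1h2ai were nearly equal in this mean over libraries, at 14.4 and 14.3, but not library by library. In set 076 Hist1h2bl lay at 41.7 and 14.3 with the antibody and 18.3 and 2.21 with IgG. Hist1h2ai lay there at 20.7 and 18.5 with the antibody and 55.6 and 5.35 with IgG. Of their 50-base stretches 82.8% and 90.1% are also in other members. Hist1h2bc had a mean of 272 and its neighbour Hist1h2ac one of 23.98. That pair also differed across the libraries of set 076, where Hist1h2bc lay within 235 to 294 and Hist1h2ac ran from 10.5 to 47.0.

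Between the sets, 0 of the 66 histone genes passed an adjusted p of 0.05 with treatment in the model, where 2.15% of all genes were called higher and 4.77% lower in set 076. At an unadjusted p under 0.05 limma gave 9 higher and 4 lower, where 1621 of all 18170 genes were higher and 3798 lower. Limma-voom called 0, with 4 higher and 2 lower unadjusted, and its counts over all genes are not given here. The median difference, set 076 minus set 045, was 0.20, beside -0.27 over all genes. In deposited TPM, 63 of 64 histone genes were called higher and 0 lower. Their median was 2.59, and the median of all genes moved by 2.17. The share of all 11468 genes called in that fit is not given here, so the count cannot be read as particular to histone genes. Hist1h3i had the smallest p, at 71.2 with the antibody and 62.7 with IgG on average in set 076, and 0 and 32.2 in set 045, a difference of 4.49 (SE 1.17, limma adjusted p = 0.062). Hist1h2be was the 1 member whose 4 libraries of set 076 (20.7 to 25.4) all lay above the 4 of set 045 (7.55 to 17.8), as 6.41% of all genes did. Structural RNAs without a poly(A) tail differed in the other direction, since 4 of 5 were called lower in set 076, while 5 of 6 smooth muscle markers were called higher. The remaining marker lists were 5 endothelial, 5 macrophage and 6 B and plasma cell genes. These lists, and those of thymocytes, red cells and skeletal muscle, gave 0 calls with the antibody in limma at an adjusted p of 0.05. Over both sets, with limma p unadjusted and under 0.05, 4 of the 6 B and plasma cell genes were lower with the antibody. On the higher side were 3 of the 6 skeletal muscle genes. Of all 18170 genes, 351 were lower and 144 higher. The skeletal muscle sum was 4101 in D1IA of set 076 and at most 297 in any other library.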

How the data were processed

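RNA of 8 brachiocephalic artery samples was sequenced after depletion of ribosomal RNA, with a kit that keeps the strand, per the labels' protocols, and the sources used here do not say whether counting used strand. The deposited values are TPM, made by the authors per gene and summing to 1000000 per library. The build was hg19, per the submitters' processing notes, although the identifiers are mouse Ensembl ones, so no coordinates come from the table. Of 49585 identifiers, 49326 were in GENCODE M21, used for gene types and exon lengths. Columns name group and set but not the numbered sample, so a column was a replicate of its group. TPM was rescaled to 1000000 over 21721 nuclear protein-coding genes. TPM times length fell on whole multiples of 1 step, within 0.001 read, for 100% of 25386 genes above 0 (19717 with the M21 length, 5669 with a derived one). The derivation was checked on 500 genes and gave the exact length for 98.4%.

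Tests were limma 3.58.1 in R 4.3.3 (trended, robust, two-sided) on log2(value + 1), leaving out genes whose mean was under 1, with 4 means (treatment by set) and 4 residual degrees of freedom. Limma was tested on simulated data. Promoters are from RefSeq (GRCm38.p6). The genes and lists were chosen with earlier results of these data known. The text names the 4 highest members per class, the 3 of smallest p per direction and comparison, H1f0, 3 testis-type genes and up to 4 of the highest genes per list. Mki67, Slbp, Lsm10, Sympk, Srrt, Pold1 and members in counts or groups were named after their values were seen. Alternatives were other scales, pseudocount 0.1, no filter, a plain empirical Bayes step, limma-voom, each set alone and each library left out. The smallest p-values and non-overlaps of low genes in set 045 rest on few reads.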

Additional observations from a re-analysis of the deposited data

Results flagged for a closer look

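Of 88 groups of 4 libraries examined (named members and sums), 7 had a library far from the other 3 by Dixon's test at the 95% level, and chance flags about 1 in 20 such groups. Among antibody libraries, Hist2h2aa2 lay at 417 in D2IA of set 045, with the other 3 at 19.8 to 77.5, and its reads cannot be told from those of Hist2h2aa1. Hist1h3h lay at 262 in the same library, with the others at 63.4 to 92.1. Hist1h3e lay at 132 in D1IA of set 076, with the others at 81.1 to 87.8.

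Among IgG libraries, the summed H2A level was 1332 in G1IA of set 076, with the others at 762 to 855. Hist1h2ao lay at 53.1 in C2IA of set 045 and at 0 in the other 3, and its near copy Hist1h2ap was at 0 in C2IA and above 0 in the other 3, so the 2 rows apart are uncertain. Hist1h2ah lay at 5.74 in G1IA of set 076 and at 0 in the other 3. Hist1h1c lay at 338 in C1IA of set 045, below the others at 431 to 436.

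The effect of the antibody on Hist1h4i went opposite ways in the sets, lower in both libraries of set 045 and higher in both of set 076. Its set 045 levels rest on 3 and 6 reads with the antibody and 10 and 16 with IgG. The difference of the effects was 1.30 on the log2 scale, with a limma adjusted p of 0.798, and does not pass the threshold.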

How the results depend on the processing

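No paired analysis was possible because the columns do not carry the labels' replicate numbers. Of 433 recomputed values of 30 named tests, 421 kept their direction and their side of the threshold, 6 turned their direction and 6 came past the threshold. The scale mattered most. For the fit of deposited TPM the shares of all genes called are not given here. In deposited TPM, 1 histone gene was called over both sets (Hist1h2ah), 3 in set 076 (Hist1h2ah, Hist1h2bl and Hist3h2ba), 1 for the difference of effects and 63 between the sets; the medians were 0.37 for the difference of effects and 2.59 between the sets, and the log2 ratio of sums in set 045 was -0.33. The differences between the sets of Hist1h2bg, Hist1h4i and Hist2h2ab turned to 2.64, 1.74 and 1.43.

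With each library left out in turn, 0 histone genes were called with the antibody in any comparison (0 to 0) and 0 to 1 between the sets, that 1 being Hist2h2aa2 without D1IA, Hist3h2bb-ps without D2IA and Hist1h3i without C1IA, all of set 045. Medians ran from 0.23 to 0.66 over both sets, 0.31 to 0.80 in set 045, -0.25 to 0.65 in set 076, -0.72 to -0.05 for the difference and -0.04 to 0.44 between the sets. The log2 ratio of sums ran from 0.50 to 0.58 in set 045 and from -0.26 (without D1IA) to 0.45 (without D2IA) in set 076. Hist1h3i ran from -2.85 (without C2IA) to 0.17 (without C1IA) over both sets and from -6.03 to 0 in set 045, and Hist1h3e in set 076 from -0.58 (without D1IA) to 0.082 (without D2IA). Where 1 library of an arm was left, it was taken to vary like the others. Depth limits low members of set 045, where some values rest on fewer than 10 reads.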
